A study of Arabidopsis thaliana with 14 samples.

Results

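The 33 genes described here encode the proteins that cut, polyadenylate and release messenger RNA in Arabidopsis thaliana. They were chosen by gene identifier from their known functions, as the subunits of the cleavage and polyadenylation specificity factor (CPSF), the cleavage stimulation factor (CstF) and cleavage factors I and II, together with the Fip1, symplekin (ESP4) and ESP1 genes, the poly(A) polymerases, the nuclear poly(A)-binding proteins, the RNA-binding proteins FCA and FPA, the SSU72 phosphatase and the XRN exonucleases. They are 33 of the 33602 genes with a count in every sample, and 1 of them, AT5G60940, also has 1 of the 1462 counted extensions, the transcribed stretches beyond an annotated 3′ end. RNA of roots was counted in 14 samples from 2 experiments. In pots of a clay granulate, roots at 3 weeks came from wild-type Col-0, from pho1-7, and from the double mutants pho1-7tex1-4 and pho1-7hpr1-5, with 2 samples each, and the labels give reads from 1 end. On plates of Murashige and Skoog medium with sucrose, roots came from Col-0 and the single mutant tex1-4, with 3 samples each, and the labels give reads from both ends. The labels also give an age of 10 days for the plate roots, and the methods give a shorter time.

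The line pho1-7 has a T-DNA insertion with a deletion in PHO1, which encodes the exporter that loads phosphate into the root xylem, and tex1-4 and the hpr1 allele are T-DNA insertions in genes of 2 subunits of the THO complex. All lines are in the Col-0 background. The labels write the hpr1 allele as hpr1-5 and the methods as hpr1-6, and the spelling of the labels is kept. Each allele is 1 line. Both double mutants carry pho1-7, so pho1-7 is their control, and the 2 comparisons with it share its samples. Growth, age and library type differ between pots and plates and cannot be told apart, so the experiments were fitted separately and their levels are set side by side without a test. Nothing in the labels says that the samples of a genotype were grown separately, so the p-values measure the spread between these samples, which may be technical. In whole roots, fewer cells of a type and less RNA per cell cannot be told apart.

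In the nucleus, CPSF reads the poly(A) signal of a nascent transcript and its 73 kDa subunit cuts the RNA, CstF binds next to the cut, and cleavage factors I and II help to place and complete it. A poly(A) polymerase then adds the tail, nuclear poly(A)-binding proteins coat it, and a 5′ to 3′ exonuclease of the XRN family degrades the RNA still being made, which helps to release RNA polymerase II. The THO complex, part of TREX, couples transcription to the packaging and export of messenger RNA, and in Arabidopsis FCA, FPA and FY are known from the control of flowering, where they favour early cleavage of RNA at FLC, the gene of a repressor of flowering.

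Reads on genes ranged from 56068761 to 110039106 per sample and reads on extensions from 174237 to 375168. TEX1 was between 0.708 and 1.03 CPM, the read count scaled to the size of the library, in pho1-7tex1-4 and between 2.17 and 2.58 CPM in tex1-4, HPR1 between 11.7 and 12.3 CPM in pho1-7hpr1-5, and PHO1 between 187.6 and 199.6 CPM in pho1-7, each below every sample without the mutation in the same experiment. All 5 root markers had reads in every sample, with a summed level of 594.6 to 950.9 CPM. The 5 leaf markers (RBCS1A, CAB2, CAB3, LHB1B1 and RBCS3B) were detected in every group, with sums of 17.9 to 32.9 CPM in Col-0, 30.4 to 35.7 in pho1-7, 1.17 to 33.8 in pho1-7tex1-4 and 20.1 to 48.7 in pho1-7hpr1-5 in pots, and of 18.6 to 28.3 in Col-0 and 11.1 to 14.5 in tex1-4 on plates. LHB1B1 had no read in replicate 1 of pho1-7tex1-4, which held the low sum, and the part of leaf RNA in the results below was not tested. Col-0 replicate 2 on plates stood apart from the other Col-0 samples, with a chi-square of 131.7 and 106.0 per degree of freedom against each of them and of 12.7 between those. Without it, the plate comparison called 18 of these genes (58.1% of those tested) and 42.9% of all genes. With it, 17 (54.8%) and 37.2% of all genes were called. The share of all genes called for the difference between the tex1-4 effects in pots and on plates was 11.5% without it and 4.92% with it.

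Most of these genes were well expressed, and 31 of the 33 had enough reads for a test. CLPS5, a relative of the CLP1 subunit of cleavage factor II, had between 1 and 13 reads per sample, and the poly(A) polymerase PAPS3 between 0 and 8, and neither was tested. Per kilobase of annotated exon, the highest mean levels in Col-0 from pots were those of XRN3 (44.2 CPM per kb) and PAPS4 (44.1), followed by PABN1 (39.7) and AT4G25550 (34.1). In Col-0 from plates PAPS4 stood first (37.5 CPM per kb), followed by XRN3 (32.4) and AT5G65260 (32.1). Among the tested genes CPSF73-II, a relative of the 73 kDa endonuclease, was the lowest in both, at 0.876 CPM per kb in pots and 1.35 on plates. Stretches of 50 bases that also occur elsewhere in the genome were present in 5 of the 33 genes and made up between 1.56% and 4.97% of their exons, with AT5G43620 and AT1G66500 among them, so most reads on these genes had a single place to map.

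A sequence is shown for AT5G60940, the one gene among them with a counted extension. On TAIR10.1 the gene lies on the plus strand of chromosome 5, from 24522953 to 24526113, and its most downstream stop codon ends at 24525655. The next gene, AT5G60945, starts at 24526245, and its strand was not read. The motif AATAAA, the letters of the canonical poly(A) signal, was searched on the gene's strand in the 589 bases between that stop codon and AT5G60945 and occurred 1 time, 8 bases past the annotated end. The same length after the stop codon holds AATAAA in 51.9% of 27443 protein-coding genes. The 30 bases around it, chr5:24526109-24526138, are printed with the motif in capitals to show where it lies.
AT5G60940: aaacggctaattAATAAAtgtttattaaaa

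Reads on this extension were fewer in every sample with tex1-4 or hpr1-5 than in any sample of the same experiment without them. In pots the extension had 51 and 60 reads in Col-0, 41 and 48 in pho1-7, 9 and 16 in pho1-7tex1-4, with 18 and 12 in pho1-7hpr1-5. On plates it had 34, 24 and 31 reads in Col-0 and 10, 8 and 9 in tex1-4. AT5G60940 encodes a WD40-repeat protein and is counted here with CstF. AT5G60945 had no read in any sample.

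In pho1-7 the extension reads came to 3.63% ± 0.0170 (SD, n = 2) of the reads on the gene body. This percentage was 0.938% ± 0.0973 (SD, n = 2) for pho1-7tex1-4, and for pho1-7hpr1-5 it stood at 1.72% ± 0.514 (SD, n = 2). The groups did not overlap. The log2 change of the ratio against pho1-7 was -1.92 in pho1-7tex1-4 (SE 0.297, adjusted p = 4.83e-05) and -1.07 in pho1-7hpr1-5 (SE 0.290, adjusted p = 0.0112), both by edgeR with a term for each sample. Of all extensions tested, 4.12% were called lower in the first comparison and 5.83% in the second, and the change of AT5G60940 stood at rank 11 and rank 88 from the lowest of 1458. The first had 68 extensions called higher and 60 lower, with a median log2 change of -0.0034. The second had 45 higher and 85 lower, with a median of -0.14. Against that shift, the 2.11-fold fall in pho1-7hpr1-5 was close to the 2-fold threshold. The call in pho1-7hpr1-5 rested on its replicate 2, since without that sample the change was -0.80 with an adjusted p of 0.158.

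On plates Col-0 had a ratio of 2.19% ± 0.338 (SD, n = 3), and tex1-4 had 0.704% ± 0.115 (SD, n = 3), again without overlap. The log2 change was -1.63 (SE 0.312, adjusted p = 0.000384), at rank 14 from the lowest of 1430, where 2.52% of extensions were called lower. Over all extensions on plates, 157 were called higher and 36 lower, with a median log2 change of 0.24. Against Col-0 in pots, with a ratio of 4.41% ± 0.753 (SD, n = 2), the change was -2.20 in pho1-7tex1-4 (adjusted p = 2.84e-06, 6.31% of extensions lower) and -1.35 in pho1-7hpr1-5 (adjusted p = 0.000747, 7.89% lower). The medians over all extensions in these 2 comparisons were -0.017 and -0.14. In pho1-7 the change of AT5G60940 was -0.28 (SE 0.212, adjusted p = 0.935), where 0.823% were called lower. Between the double mutants the change was 0.85, higher in pho1-7hpr1-5 (SE 0.386, adjusted p = 0.184), and was not called. Of 1458 extensions, 24 were called higher and 52 (3.57%) lower in pho1-7hpr1-5.

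**Figure D1:**
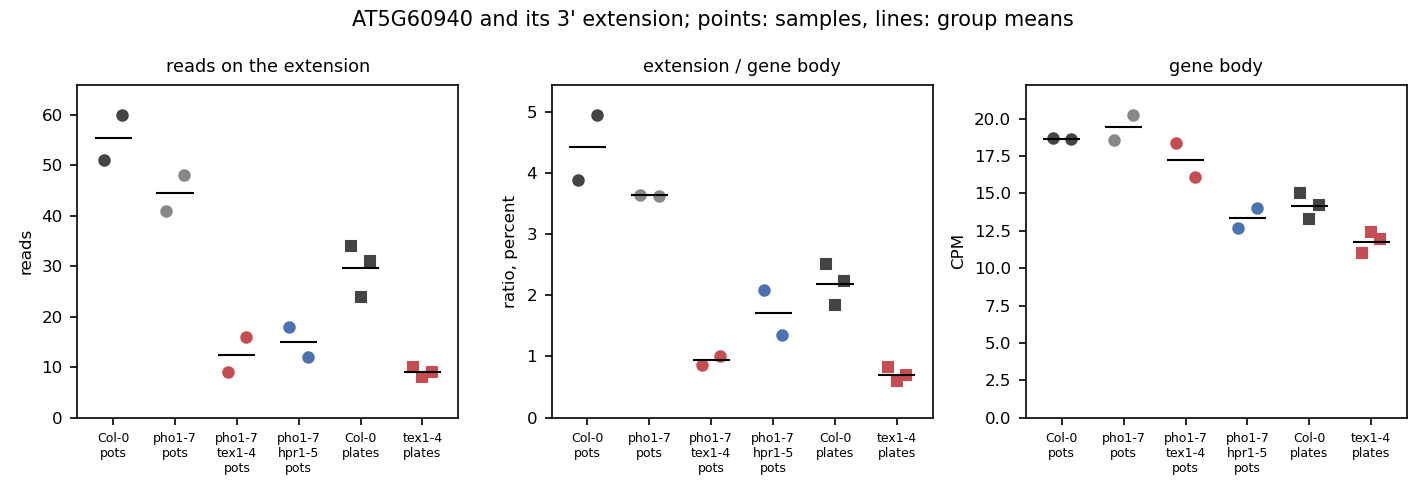
Reads on the extension of AT5G60940, their percentage of the reads on its gene body, and the level of the gene body in CPM, by group, with 1 point per sample and a line at each group mean. The 7 samples with tex1-4 or hpr1-5 had 8 to 18 extension reads, and the 7 others had 24 to 60.

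The gene body moved less than the extension. Scaled to the library size without the gene body, the extension was at 0.713 ± 0.0523 CPM (SD, n = 2) in pho1-7, against 0.161 ± 0.000648 CPM (SD, n = 2) with tex1-4 added and 0.226 ± 0.0445 CPM (SD, n = 2) with hpr1-5 added, and on plates at 0.310 ± 0.0723 CPM (SD, n = 3) in Col-0 and 0.0834 ± 0.00777 CPM (SD, n = 3) in tex1-4. The gene body of AT5G60940 was at 18.6 and 20.3 CPM in pho1-7, 18.4 and 16.1 in pho1-7tex1-4, with 12.7 and 14.04 in pho1-7hpr1-5, so that both pho1-7hpr1-5 samples lay under all others in pots. It fell by 0.54 on the log2 scale in pho1-7hpr1-5 (SE 0.0913, adjusted p = 0.00386), while the change in pho1-7tex1-4 was -0.18 (adjusted p = 0.16). On plates it was at 15.0, 13.3 and 14.2 CPM in Col-0 and 11.01, 12.4 and 11.9 in tex1-4, and fell by 0.27 (SE 0.0827, adjusted p = 0.0524), a call that was lost without any one of 4 of the 6 plate samples, Col-0 replicates 1 and 3 and tex1-4 replicates 1 and 3, with an adjusted p of up to 0.172. The extension coordinates are not in the count files, so whether the extension begins before or after the motif shown above was not tested.

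Across the whole set, members were called in both directions. In pho1-7tex1-4 against pho1-7, edgeR called 18 of the 31 tested genes at an adjusted p under 0.1 (13 higher and 5 lower), or 58.1%, where 46.4% of all 21972 tested genes were called (24.5% higher and 21.9% lower). In pho1-7hpr1-5 against pho1-7 it called 14 (8 higher and 6 lower), or 45.2% against 41.2% of all genes (21.2% higher and 20% lower), and in tex1-4 against Col-0 on plates 17 (11 higher and 6 lower), or 54.8% against 37.2% (17.8% higher and 19.3% lower). The median log2 change of the tested members was 0.15, -0.0016 and 0.04 in these 3 comparisons, beside 0.02, 0.0082 and 0.0082 over all tested genes. No member passed a 2-fold change in any of the 3, where 5.02%, 5.19% and 5.42% of all genes did. With any 1 library left out, the counts ran from 10 to 18 in pho1-7tex1-4, from 6 to 13 in pho1-7hpr1-5 and from 9 to 18 on plates. The first fell to 11 without pho1-7tex1-4 replicate 2 and to 10 without pho1-7 replicate 1, and the second to 9 without pho1-7hpr1-5 replicate 1, to 6 without its replicate 2 and to 7 without pho1-7 replicate 1. The share in pho1-7hpr1-5 against pho1-7 was near that of all genes and is no result about the members. It was 29% of the members against 35.4% of all genes with DESeq2, 25.8% against 31.7% at an adjusted p under 0.05, and 19.4% against 30.3% without pho1-7hpr1-5 replicate 2. Without Col-0 replicate 3 the plate count fell to 9, or 28.1% of the members against 25.1% of all genes. Without tex1-4 replicate 2 it was 9 (29% against 20.6%), and without tex1-4 replicate 1 it was 10 (32.3% against 21.1%). In pots, leaving out a sample left 1 in its group, and the share of all genes called fell there too. The lower pot counts are therefore no result about the members.

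Called in the same direction in all 3 comparisons were 7 genes that rose, CPSF30, FIPS5, AT3G66652, AT4G25550, FPA, PABN1 and AT5G10350, and 2 that fell, CSTF77 and PAPS2. Of the 21264 genes tested in both experiments, 6.39% rose and 7.14% fell in all 3. Of the 9 genes, AT5G10350, FIPS5 and PAPS2 kept all 3 calls with any single library left out. The difference between the tex1-4 effect in pots and that on plates was tested in 1 fit over all samples, and edgeR called none of the 31 genes, where 4.92% of 22667 genes were called. At an unadjusted p under 0.05 it marked 3 (CPSF160, ESP1 and XRN3), and DESeq2 called 2 (ESP1 and XRN3). The pot effect was read with pho1-7 in both groups and the plate effect without it. That background therefore cannot be told apart from growth, age and library type.

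**Figure D2:**
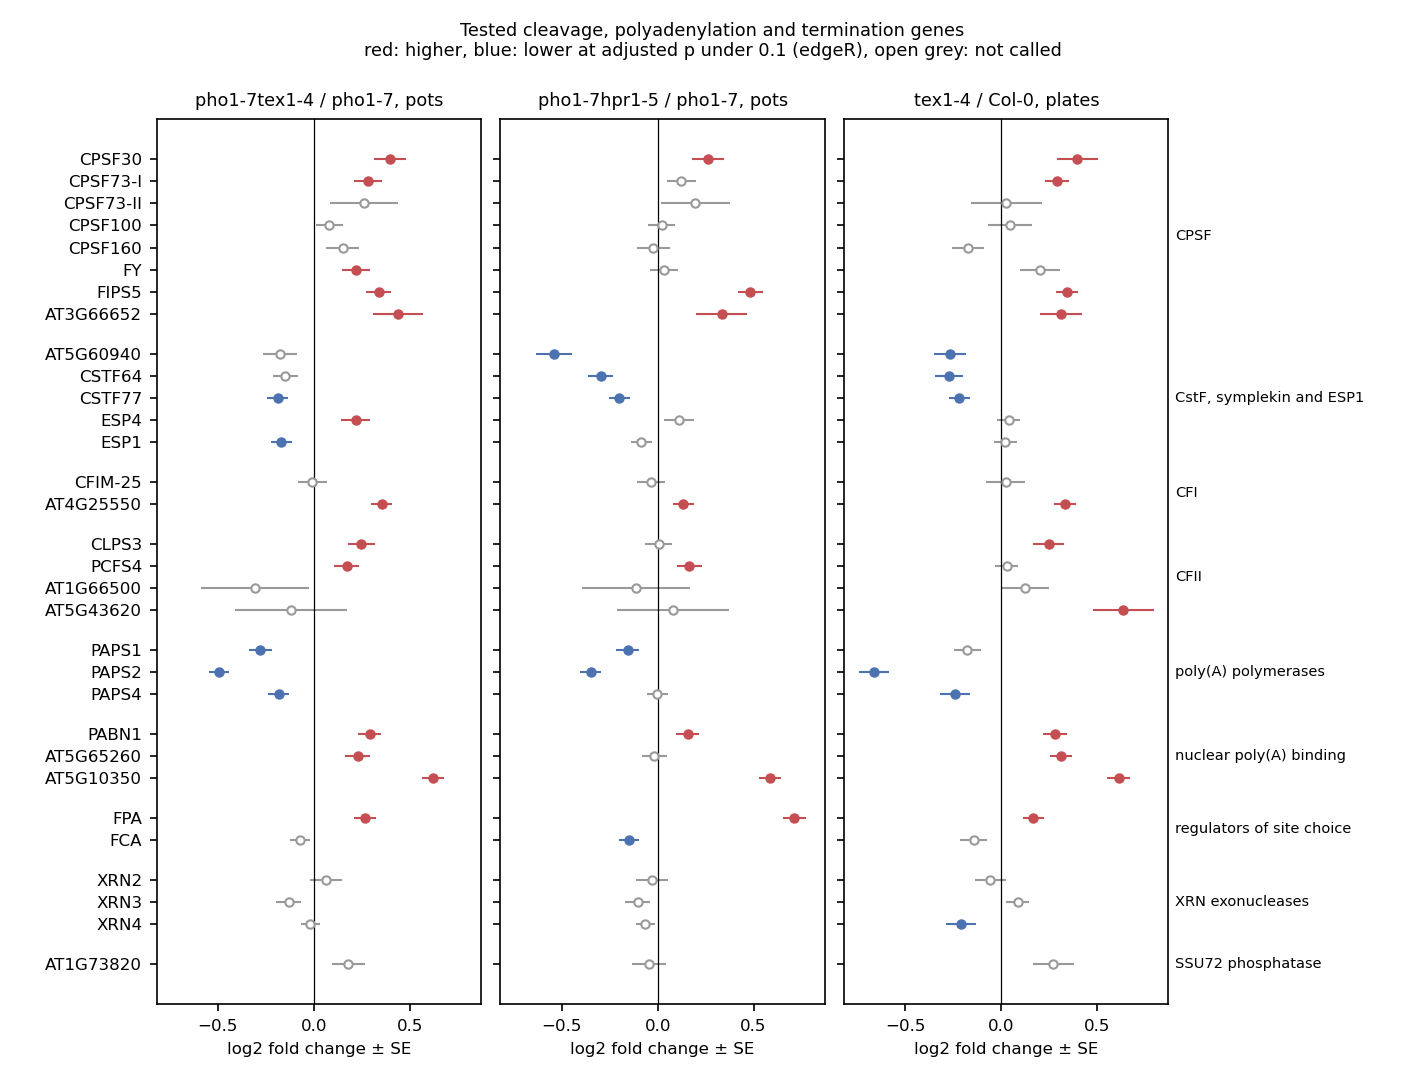
The log2 fold change with its standard error for the 31 tested genes, grouped by function, in pho1-7tex1-4 and pho1-7hpr1-5 against pho1-7 in pots and in tex1-4 against Col-0 on plates. Filled points passed an adjusted p under 0.1, with 18, 14 and 17 genes called from left to right, and the poly(A) polymerases lay at or below 0 while all 3 nuclear poly(A)-binding genes lay above 0 in both tex1-4 comparisons.

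Of the 8 CPSF genes, counting FY and the 2 Fip1 genes, 5 rose in pho1-7tex1-4 and 3 in pho1-7hpr1-5 against pho1-7, 4 rose on plates, and none fell in any of them. In the same order 24.5%, 21.2% and 17.8% of all genes were called higher and 21.9%, 20% and 19.3% lower. With 8 genes, the counts are too small to set against these shares. FIPS5, a homologue of Fip1, which in yeast ties poly(A) polymerase to the cleavage complex, was at 107 and 110 CPM in pho1-7, 131 and 144 in pho1-7tex1-4, with 153 and 151 in pho1-7hpr1-5. On plates FIPS5 was at 81.2, 85.2 and 82.4 CPM in Col-0 and 106, 101 and 108 in tex1-4. Every mutant sample lay above every control sample. FIPS5 rose by log2 changes of 0.34 (SE 0.0649, adjusted p = 0.00658), 0.48 (SE 0.0651, adjusted p = 0.00149) and 0.34 (SE 0.0580, adjusted p = 0.00826).

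CPSF30, the zinc-finger subunit that binds RNA near the poly(A) signal, was at 20.9 and 23.9 CPM in pho1-7, 29.0 and 29.9 in pho1-7tex1-4, with 25.5 and 28.2 in pho1-7hpr1-5. On plates CPSF30 was at 22.9, 17.6 and 21.9 CPM in Col-0 and 28.8, 27.7 and 25.5 in tex1-4. The groups did not overlap, although replicate 2 of Col-0 on plates was low. CPSF30 rose by 0.40 (adjusted p = 0.00853), 0.26 (adjusted p = 0.0427) and 0.40 (adjusted p = 0.0353). The call in pho1-7hpr1-5 was lost without its replicate 2 or without pho1-7 replicate 1 (adjusted p up to 0.206), and that on plates without tex1-4 replicate 1 or 2 (up to 0.124).

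CPSF73-I, the endonuclease, was at 44.0 and 51.0 CPM in pho1-7, 57.5 and 58.1 in pho1-7tex1-4, with 50.5 and 53.0 in pho1-7hpr1-5. On plates CPSF73-I was at 29.3, 27.1 and 27.3 CPM in Col-0 and 34.5, 34.9 and 32.9 in tex1-4. Only the samples with tex1-4 lay above all of their controls, while pho1-7hpr1-5 overlapped pho1-7. CPSF73-I rose in both tex1-4 comparisons, by 0.28 in pots (adjusted p = 0.0222, lost without pho1-7 replicate 1 at 0.107) and 0.29 on plates (adjusted p = 0.017), and the change in pho1-7hpr1-5 was 0.12 (adjusted p = 0.251).

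AT3G66652, the other gene with a Fip1 motif, was at 9.07 and 12.0 CPM in pho1-7, 14.3 and 14.2 in pho1-7tex1-4, with 12.3 and 14.2 in pho1-7hpr1-5. On plates AT3G66652 was at 10.8, 8.16 and 9.00 CPM in Col-0 and 11.7, 11.5 and 11.5 in tex1-4. Its control samples were spread as widely as the groups were apart, with pho1-7 replicate 2 and Col-0 replicate 1 on plates close to the mutants. AT3G66652 rose by 0.44 (adjusted p = 0.0343), 0.33 (adjusted p = 0.0906) and 0.31 (adjusted p = 0.079), and each call was lost in at least 2 of the fits with 1 library left out, with adjusted p-values of up to 0.16, 0.385 and 0.195. FY, the WD-repeat subunit that binds FCA, rose in pho1-7tex1-4 only, by 0.22 (adjusted p = 0.0491, lost without either pho1-7tex1-4 sample or pho1-7 replicate 1, up to 0.185). Changes in the other 2 comparisons were 0.03 and 0.20 (adjusted p = 0.757 and 0.184). CPSF73-II, CPSF100 and CPSF160 were called in none of the 3, with changes from -0.18 to 0.26.

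The 3 CstF genes were called only downward, where 21.9%, 20% and 19.3% of all genes were called lower in the 3 comparisons. CSTF77, the scaffold of the complex, was at 42.7 and 44.6 CPM in pho1-7, 38.7 and 37.9 in pho1-7tex1-4, with 38.9 and 37.1 in pho1-7hpr1-5. On plates CSTF77 was at 37.2, 37.7 and 39.4 CPM in Col-0 and 33.2, 32.4 and 32.5 in tex1-4, so that no group overlapped its control. CSTF77 fell by 0.19 (adjusted p = 0.0317), 0.20 (adjusted p = 0.0287) and 0.22 (adjusted p = 0.0298). The first call was lost without pho1-7tex1-4 replicate 2 or pho1-7 replicate 2, the second without pho1-7hpr1-5 replicate 2 or pho1-7 replicate 2, and the third without Col-0 replicate 3 or tex1-4 replicate 2, with adjusted p-values of up to 0.135, 0.135 and 0.115.

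CSTF64, the RNA-binding subunit, was at 25.5 and 26.4 CPM in pho1-7, 22.9 and 23.8 in pho1-7tex1-4, with 21.7 and 20.5 in pho1-7hpr1-5. On plates CSTF64 was at 22.4, 20.5 and 22.2 CPM in Col-0 and 18.2, 16.9 and 18.7 in tex1-4. Each mutant group lay under its control. CSTF64 fell by 0.30 in pho1-7hpr1-5 (SE 0.0649, adjusted p = 0.0113) and by 0.27 on plates (SE 0.0719, adjusted p = 0.0318, lost without Col-0 replicate 3 or tex1-4 replicate 2, up to 0.117), and its change in pho1-7tex1-4 was -0.15 (adjusted p = 0.104). The scaffold gene ESP4 and the CstF64-like gene ESP1 were called in pho1-7tex1-4 only. ESP4 rose by 0.22 (adjusted p = 0.058, up to 0.291 without pho1-7tex1-4 replicate 2 or pho1-7 replicate 1) and ESP1 fell by 0.17 (adjusted p = 0.0416, up to 0.146 without either pho1-7tex1-4 sample or pho1-7 replicate 1).

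**Figure D3:**
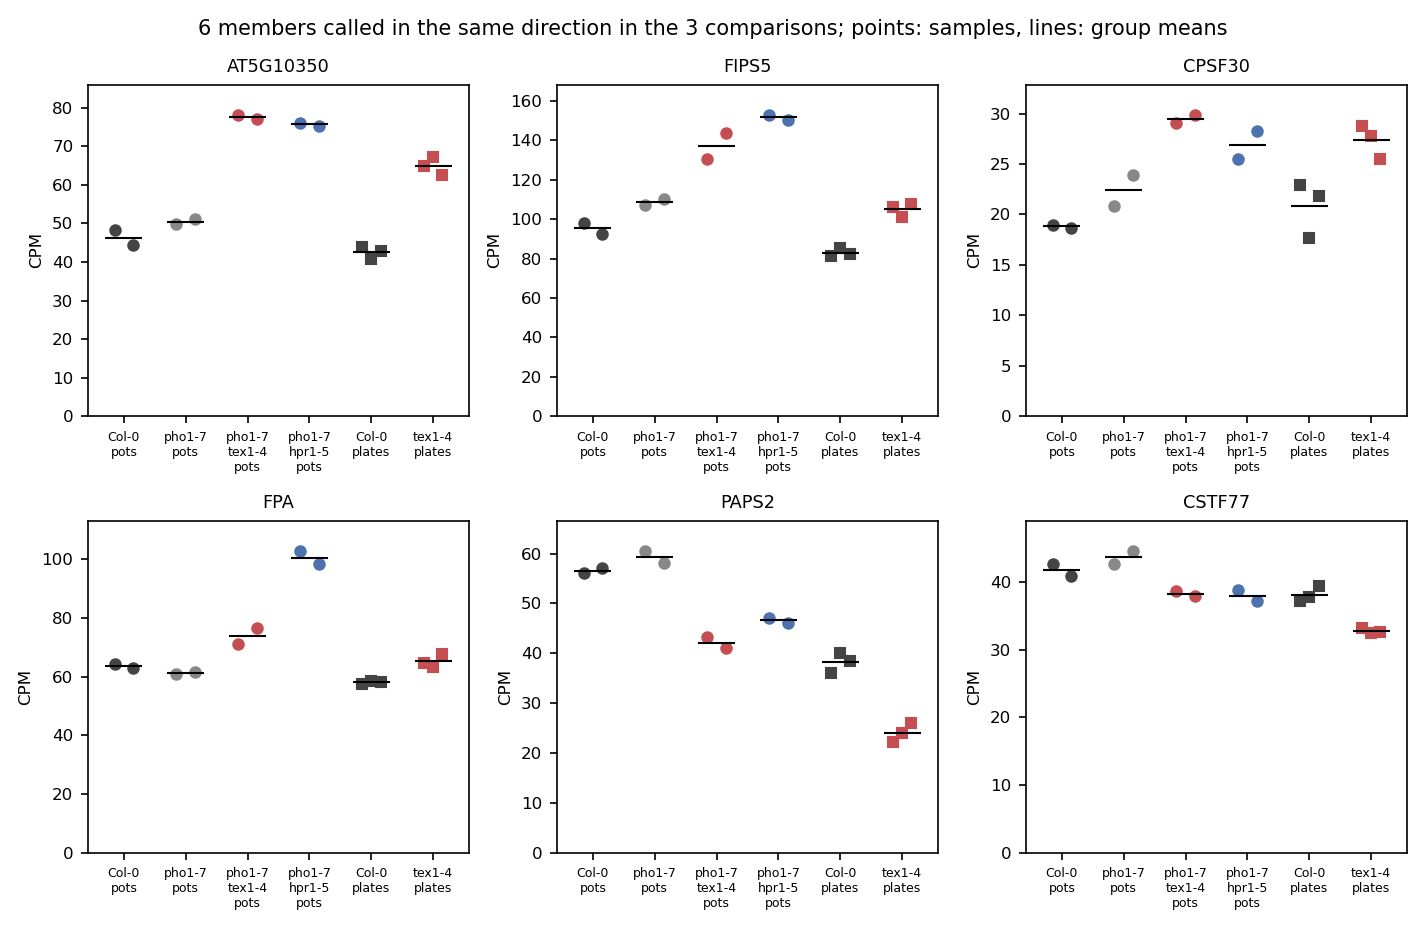
CPM in every sample for 6 of the 9 genes called in the same direction in the 3 comparisons, with circles for pots, squares for plates and a line at each group mean. AT5G10350, FIPS5 and FPA lay higher and PAPS2 and CSTF77 lower in each mutant group than in pho1-7 in pots or Col-0 on plates.

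Of the 2 genes for the 25 kDa subunit of cleavage factor I, which takes part in choosing the cleavage site, only AT4G25550 was called. AT4G25550 was at 41.0 and 40.8 CPM in pho1-7, 53.7 and 50.9 in pho1-7tex1-4, with 43.8 and 45.9 in pho1-7hpr1-5. On plates AT4G25550 was at 33.8, 31.8 and 33.1 CPM in Col-0 and 42.1, 41.7 and 40.5 in tex1-4. The samples with tex1-4 stood well clear of their controls and those with hpr1-5 little above them. AT4G25550 rose by 0.35 (SE 0.0548, adjusted p = 0.00296), 0.13 (SE 0.0551, adjusted p = 0.0994, lost without any of the 4 samples, up to 0.338) and 0.33 (SE 0.0573, adjusted p = 0.00846). The other gene, CFIM-25, changed by -0.01, -0.03 and 0.02 (adjusted p of 0.76 or more).

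In cleavage factor II, CLPS3 encodes a homologue of the CLP1 subunit and PCFS4, AT1G66500 and AT5G43620 encode relatives of Pcf11, which in yeast binds the tail of RNA polymerase II. CLPS3 was at 23.3 and 26.5 CPM in pho1-7, 29.7 and 29.4 in pho1-7tex1-4, 24.9 and 25.1 in pho1-7hpr1-5, and, on plates, 23.0, 19.3 and 21.2 in Col-0 and 25.4, 26.1 and 23.8 in tex1-4. The samples with tex1-4 lay above their controls and those with hpr1-5 lay among them. CLPS3 rose by 0.25 in pho1-7tex1-4 (adjusted p = 0.0265, lost without pho1-7tex1-4 replicate 1 or pho1-7 replicate 1, up to 0.134) and by 0.25 on plates (adjusted p = 0.0628, lost without Col-0 replicate 3 or tex1-4 replicate 1 or 2, up to 0.189). PCFS4 rose by 0.17 in each double mutant (adjusted p = 0.0704 and 0.0873), and each call was lost in 3 of the 4 fits with a library left out, with adjusted p-values of up to 0.33 and 0.358. On plates the change of PCFS4 was 0.03 (adjusted p = 0.757).

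AT1G66500 and AT5G43620, shown in every sample because of a spread seen in their values, had replicates that lay far apart in the double mutants. AT1G66500 was at 31.7 and 23.9 CPM in Col-0 from pots, 16.7 and 16.1 in pho1-7, 17.0 and 9.79 in pho1-7tex1-4, with 11.9 and 18.4 in pho1-7hpr1-5, and between 5.05 and 6.81 in all 6 plate samples. AT5G43620 was at 14.7 and 11.1, 8.28 and 7.04, 9.00 and 5.27, and 6.27 and 9.93 CPM in the same order of pot groups, and between 2.45 and 4.85 on plates. The replicates of each double mutant differed widely and in the same direction in both genes, and each pot sample lay above each plate sample. AT1G66500 changed by -0.30 and -0.11 and AT5G43620 by -0.12 and 0.08 in the double mutants against pho1-7 (adjusted p of 0.423 or more), while AT5G43620 rose by 0.64 on plates (SE 0.158, adjusted p = 0.0267), a call kept with any plate sample left out.

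**Figure D4:**
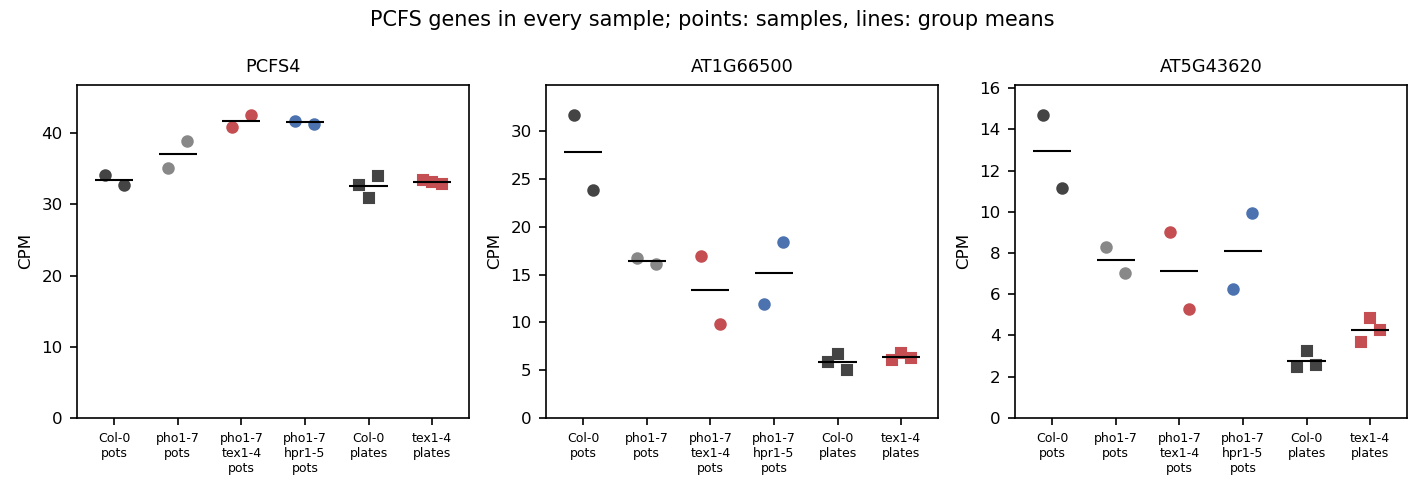
CPM of the 3 genes related to Pcf11 in every sample, with circles for pots, squares for plates and a line at each group mean. PCFS4 stayed between 30.97 and 42.6 CPM, whereas AT1G66500 ranged from 5.05 to 31.7 CPM and AT5G43620 from 2.45 to 14.7 CPM.

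Of the poly(A) polymerases tested, 3 of 3 fell in pho1-7tex1-4, 2 of 3 in pho1-7hpr1-5 and 2 of 3 on plates, and none rose. In the same order 21.9%, 20% and 19.3% of all genes were called lower, and 3 genes are too few to set against these shares. PAPS2 was at 60.5 and 58.2 CPM in pho1-7, 43.2 and 41.0 in pho1-7tex1-4, with 47.2 and 46.0 in pho1-7hpr1-5. On plates PAPS2 was at 36.1, 40.0 and 38.4 CPM in Col-0 and 22.3, 24.0 and 26.0 in tex1-4. Every mutant sample was well below its controls. PAPS2 fell by 0.50 (SE 0.0538, adjusted p = 0.000803), 0.35 (SE 0.0538, adjusted p = 0.00259) and 0.66 (SE 0.0793, adjusted p = 0.00278), and it had the largest log2 fall among the 31 genes in the first and the third comparison.

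PAPS4, the most abundant polymerase of this family in these roots per length, was at 180 and 178 CPM in pho1-7, 155 and 160 in pho1-7tex1-4, with 182 and 175 in pho1-7hpr1-5. On plates PAPS4 was at 140, 164 and 146 CPM in Col-0 and 123, 126 and 132 in tex1-4. The samples with tex1-4 lay below their controls, and pho1-7hpr1-5 spanned pho1-7. PAPS4 fell by 0.18 in pho1-7tex1-4 (adjusted p = 0.0349, up to 0.162 without pho1-7tex1-4 replicate 1 or pho1-7 replicate 1) and by 0.24 on plates (adjusted p = 0.0553, up to 0.178 without Col-0 replicate 3 or tex1-4 replicate 1 or 2), and it changed by -0.0016 in pho1-7hpr1-5 (adjusted p = 0.985). PAPS1 fell by 0.28 in pho1-7tex1-4 (adjusted p = 0.00947) and by 0.16 in pho1-7hpr1-5 (adjusted p = 0.0795, lost in 3 of the 4 fits with a library left out, up to 0.285), with -0.18 on plates (adjusted p = 0.104).

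The 3 nuclear poly(A)-binding genes, whose products bind the growing tail, rose in pho1-7tex1-4 and on plates, and 2 of the 3 rose in pho1-7hpr1-5. In the same order 24.5%, 17.8% and 21.2% of all genes were called higher, and 3 genes are too few to set against these shares. AT5G10350 was at 49.9 and 51.0 CPM in pho1-7, 78.2 and 77.0 in pho1-7tex1-4, with 76.1 and 75.2 in pho1-7hpr1-5. On plates AT5G10350 was at 43.9, 40.8 and 42.7 CPM in Col-0 and 64.9, 67.3 and 62.6 in tex1-4. The 7 mutant samples stood apart from all 7 others, and the replicates within a group were close. AT5G10350 rose by 0.62 (SE 0.0566, adjusted p = 0.00042), 0.58 (SE 0.0568, adjusted p = 0.000371) and 0.61 (SE 0.0604, adjusted p = 0.00161).

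PABN1 was at 57.0 and 59.7 CPM in pho1-7, 72.3 and 70.4 in pho1-7tex1-4, with 65.6 and 64.4 in pho1-7hpr1-5. On plates PABN1 was at 44.0, 40.2 and 43.4 CPM in Col-0 and 51.4, 52.9 and 50.5 in tex1-4. No mutant sample overlapped its controls. PABN1 rose by 0.29 (adjusted p = 0.00843), 0.16 (adjusted p = 0.0808, lost without any of the 4 samples, up to 0.265) and 0.28 (adjusted p = 0.018). AT5G65260, the remaining member of the family, was at 27.0 and 25.5 CPM in pho1-7, 30.7 in both pho1-7tex1-4 samples, and 27.1 and 24.7 in pho1-7hpr1-5, and on plates at 32.8, 33.4 and 32.5 in Col-0 and 40.5, 42.0 and 40.0 in tex1-4. The samples with tex1-4 lay above their controls and those with hpr1-5 did not. AT5G65260 rose by 0.23 in pho1-7tex1-4 (adjusted p = 0.029, up to 0.11 without either pho1-7tex1-4 sample or pho1-7 replicate 2) and by 0.31 on plates (adjusted p = 0.00931), and changed by -0.02 in pho1-7hpr1-5 (adjusted p = 0.863).

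The 2 regulators of site choice did not move together. FPA was at 60.9 and 61.7 CPM in pho1-7, 71 and 76.5 in pho1-7tex1-4, with 103 and 98.3 in pho1-7hpr1-5. On plates FPA was at 57.6, 58.6 and 58.1 CPM in Col-0 and 64.8, 63.1 and 67.8 in tex1-4. Every mutant sample was above its controls, and pho1-7hpr1-5 was above all. FPA rose by 0.27 (SE 0.0579, adjusted p = 0.0104), 0.71 (SE 0.0575, adjusted p = 0.000203) and 0.17 (SE 0.0557, adjusted p = 0.0638), the last a call that was kept only without Col-0 replicate 2 and reached an adjusted p of 0.183 otherwise. Counts per gene do not separate its 6 annotated transcripts, so whether the short or the long forms rose was not tested. FCA fell by 0.15 in pho1-7hpr1-5 (adjusted p = 0.0597, lost without any of the 4 samples, up to 0.168), with -0.07 in pho1-7tex1-4 and -0.14 on plates (adjusted p = 0.304 and 0.163).

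The XRN genes changed little. XRN2 and XRN3, the nuclear exonucleases, had log2 changes from -0.13 to 0.09 in the 3 comparisons, with adjusted p-values of 0.154 or more. XRN4, the cytoplasmic one, fell by 0.21 on plates (adjusted p = 0.0899, lost without Col-0 replicate 3 or any tex1-4 sample, up to 0.257), and it changed by -0.02 and -0.06 in pots. AT1G73820, a relative of SSU72, which removes phosphate from the tail of RNA polymerase II, changed by 0.18, -0.05 and 0.27 and was not called (adjusted p of 0.102 or more).

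Without a THO mutation, pho1-7 differed from Col-0 in 1 of the 31 genes (3.23%), where 13.6% of all tested genes were called, 5.43% higher and 8.16% lower. FCA was at 34.7 and 36.4 CPM in Col-0 and 39.9 and 40.6 in pho1-7, without overlap. FCA rose by 0.18 (SE 0.0520, adjusted p = 0.0824), a call that was lost without any one of the 4 samples (adjusted p from 0.111 to 0.276) and by DESeq2 (0.12). With DESeq2, 9.68% of the members were called here, where 14.3% of all genes were. Without a filter on low counts it was 15.2%, where 12.6% of all genes were. The count also changed with the sample left out, which left 1 sample in a group. The low share is therefore no result about the members.

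Against Col-0 the double mutants differed in more members. In pho1-7tex1-4, 26 of 31 were called (18 higher and 8 lower), or 83.9%, where 55.8% of all genes were (28.3% higher and 27.5% lower), with a median log2 change of 0.22 over the members and -0.0031 over all genes. In pho1-7hpr1-5, 19 were called (11 higher and 8 lower), or 61.3%, where 51.5% of all genes were (25.5% higher and 26% lower). All 8 CPSF genes rose in pho1-7tex1-4 and 5 of them in pho1-7hpr1-5, with the 3 remaining ones at changes from 0.16 to 0.39 (adjusted p of 0.106 or more). In pho1-7tex1-4 the calls of CPSF73-II and CPSF100 were lost with any 1 of the 4 libraries left out. CPSF73-II was also not called by DESeq2. With 8 genes, the counts are too small to set against the shares of all genes. Both counts fell with any 1 of their 4 libraries left out. That left 1 sample in a group, and the share of all genes called fell there too. The lower counts are therefore no result about the members.

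CPSF30, with 19.0 and 18.7 CPM in Col-0 from pots, rose by 0.64 in pho1-7tex1-4 (adjusted p = 0.00113) and 0.51 in pho1-7hpr1-5 (adjusted p = 0.00218). FIPS5, at 98.2 and 92.7 CPM in Col-0, rose by 0.52 (adjusted p = 0.00105) and 0.67 (adjusted p = 0.000259). Both genes lay in pho1-7 between Col-0 and the double mutants. AT5G10350, at 48.2 and 44.5 CPM in Col-0, rose by 0.74 (adjusted p = 0.000244) and 0.71 (adjusted p = 0.000113). PAPS2, at 56.1 and 57.1 CPM, fell by 0.43 (adjusted p = 0.00109) and 0.28 (adjusted p = 0.00461), and FPA, at 64.5 and 63.1 CPM, rose by 0.21 (adjusted p = 0.0197) and 0.66 (adjusted p = 0.000166). The 2-fold threshold was passed by AT1G66500 alone, in pho1-7tex1-4, where it fell by 1.07 (SE 0.279, adjusted p = 0.016, where 5.93% of all genes were past 2-fold, against 6.93% in pho1-7hpr1-5). AT1G66500 was at 31.7 and 23.9 CPM in Col-0 and already at 16.7 and 16.1 in pho1-7. In pho1-7tex1-4 replicate 1, at 17.0 CPM, lay above both pho1-7 samples, and only replicate 2, at 9.79, lay below them.

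The last comparison in pots set pho1-7hpr1-5 against pho1-7tex1-4. Of the 31 genes, 9 were called (3 higher and 6 lower in pho1-7hpr1-5 than in pho1-7tex1-4), or 29%, where 36.8% of all genes were (17.5% higher and 19.3% lower). FPA was higher in pho1-7hpr1-5 by 0.45 (SE 0.0577, adjusted p = 0.00157), a call kept with any library left out. PAPS4 and PAPS2 were higher by 0.18 and 0.15 (adjusted p = 0.0455 and 0.0794). AT4G25550, AT5G65260 and the AT5G60940 gene body were lower, by log2 changes of -0.22, -0.25 and -0.36 (adjusted p = 0.0225, 0.0288 and 0.0234), as were CLPS3, FY and AT1G73820 (-0.24, -0.18 and -0.23). The number called fell with any 1 of these libraries left out. That left 1 sample in a group, and the share of all genes called fell there too. The share of 29% beside 36.8%, and the lower counts, are no result about the members. Without pho1-7tex1-4 replicate 1, AT4G25550, AT5G60940 and AT5G65260 were at adjusted p-values of 0.133, 0.133 and 0.118.

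Genes that work next to this machinery were read from 4 further lists, beside the 46.4%, 41.2% and 37.2% of all genes called in the 3 comparisons, with medians of 0.02, 0.0082 and 0.0082 on the log2 scale. Of 10 genes for RNA polymerase II, elongation and the phosphatases of its tail, 1 rose and 3 fell in pho1-7tex1-4 against pho1-7, 3 rose and 3 fell in pho1-7hpr1-5, and 1 rose and 4 fell on plates, with medians of -0.06, 0.03 and -0.15. CPL3, a phosphatase of the tail of RNA polymerase II, was at 43.8 and 44.6 CPM in pho1-7, 28.1 and 30.5 in pho1-7tex1-4, with 47.2 and 46.0 in pho1-7hpr1-5, and on plates at 48.1, 52.8 and 49.2 in Col-0 and 27.0, 25.9 and 28.9 in tex1-4. It was low in the 5 samples with tex1-4 and in no other. CPL3 fell by 0.59 in pho1-7tex1-4 (adjusted p = 0.000514) and 0.88 on plates (adjusted p = 0.000798), changed by 0.08 in pho1-7hpr1-5 (adjusted p = 0.336), and differed between the double mutants by 0.67 (adjusted p = 0.000254). CPL2 rose by 0.42 in pho1-7hpr1-5 (adjusted p = 0.000763) and changed by -0.02 and -0.12 in the tex1-4 comparisons (adjusted p = 0.767 and 0.195).

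Of 7 nuclear exosome genes, which degrade RNA from the 3′ end, 3 rose in pho1-7tex1-4 and 1 in pho1-7hpr1-5 against pho1-7, 2 rose on plates, and none fell, with medians of 0.14, 0.09 and 0.09. Of all genes, 24.5%, 21.2% and 17.8% were called higher, and 7 genes are too few to set against these shares. RRP6L2 rose by 0.44, 0.34 and 0.23 in the 3 comparisons (adjusted p = 0.00262, 0.00702 and 0.047, the last lost without Col-0 replicate 3 or tex1-4 replicate 1 or 2), and RRP4 by 0.44 in pho1-7tex1-4 (adjusted p = 0.0152) and 0.41 on plates (adjusted p = 0.0708, lost without tex1-4 replicate 1 or 2). Of 9 genes for cytoplasmic poly(A) binding and decapping, 2 rose in pho1-7tex1-4, and 3 rose and 1 fell in pho1-7hpr1-5, and 1 rose on plates, with medians of 0.04, 0.05 and 0.09. PAT1, a decapping activator, rose by 0.45, 0.42 and 0.37 (adjusted p = 0.00106, 0.00114 and 0.00608), and the decapping enzyme gene DCP2 rose by 0.39 in pho1-7hpr1-5 alone among the 3 (adjusted p = 0.00192).

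Of 5 further genes of the autonomous flowering pathway, 2 rose and 2 fell in pho1-7tex1-4 and 2 fell in pho1-7hpr1-5 against pho1-7, and 1 rose and 2 fell on plates, with medians of -0.09, -0.07 and 0.02. FLC had few reads everywhere, 43 and 34 in Col-0 from pots, 21 and 80 in pho1-7, only 0 and 1 in pho1-7tex1-4, 0 and 6 in pho1-7hpr1-5, 31, 23 and 16 in Col-0 from plates, and 1, 1 and 0 in tex1-4. Every mutant sample lay below its controls, and edgeR called FLC lower in all 3 comparisons (adjusted p = 0.00571, 0.0129 and 0.00407). At these counts the size of the fall was not measured. LD, a homeodomain protein of the pathway, fell by 0.27 on plates (adjusted p = 0.0135) and by 0.20 and 0.19 in the double mutants (adjusted p = 0.0522 and 0.0727), where each call was lost in 3 of the 4 fits with a library left out, with adjusted p-values of up to 0.215 and 0.297.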

How the data were processed

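The deposited files are tables of raw read counts per gene and per 3′ extension, which the authors made without normalization. Per the methods, poly(A)+ RNA was prepared with a stranded TruSeq kit, reads were mapped with Hisat2 to TAIR10 and counted with HTSeq-count, and extensions were assembled from intergenic bins covered by reads. Tool versions are not given in the sources used here. Between 17.1% and 19.6% of the reads of a sample were listed as not on a gene and were left out. Counts per gene do not separate isoforms.

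Genes were tested with the quasi-likelihood test of edgeR 4.0.16 (R 4.3.3) after TMM scaling and its default filter on low counts, with Benjamini-Hochberg adjustment over all tested genes, and were called at an adjusted p under 0.1. The 8 pot samples were fitted together, the 6 plate samples separately, and all 14 for the difference between the tex1-4 effects. The standard error is the absolute log2 change divided by the square root of F. For extensions with at least 10 reads, a model with a term for each sample tested the ratio to the gene body, called at an adjusted p under 0.1 and over 2-fold. CPM are TMM-scaled within an experiment, and levels per kb use the annotated exons of RefSeq TAIR10.1, which also gave gene positions and the printed sequence. The fits were tested on simulated counts.

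Per-sample values are given for up to 4 called members with the smallest adjusted p in each comparison, for members called in the same direction on plates and in a double mutant, and for the gene with an extension. From each related list up to 2 genes are named, those with the smallest adjusted p, and CPSF73-I, CLPS3 and AT5G65260 fall under the second part of the rule. AT1G66500 and AT5G43620 were shown outside the rule, chosen after their values were seen. The members and lists were chosen with earlier results of these data known. Alternatives were DESeq2 1.42.0, RLE factors, library totals, no filter, stricter thresholds, a replicate block, fits of only the genotypes compared, and leaving out each sample. Library totals and the extension scaled without its gene body were added after seeing the data.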

Additional observations from a re-analysis of the deposited data

How the results depend on the processing

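Called changes of single genes and the extension were recomputed under each alternative. Of these values, 782 stayed called and 243 did not, and none changed direction. A further 16 values belong to the 2 comparisons in which the extension was not called, and they stayed uncalled. The number of members called moved by more than 1.5-fold under the following settings. In pho1-7 against Col-0, where edgeR called 1, it was 3 with DESeq2, 2 with RLE factors, 5 without a filter, 2 with library totals, 2 with only the genotypes compared and 0 at an adjusted p under 0.05. Of all genes, 14.3%, 13.6%, 12.6%, 13.3%, 12.7% and 7.11% were called in that order, beside 13.6% in the main fit. In pho1-7hpr1-5 against pho1-7, where edgeR called 14, it was 9 with DESeq2, 9 without a filter, 8 at an adjusted p under 0.05 and 7 with only the genotypes compared. The shares of all genes were 35.4%, 31.8%, 31.7% and 32.4% in that order, beside 41.2% in the main fit. On plates the number was 11 at an adjusted p under 0.05, against 17, or 35.5% of the members where 25.2% of all genes were called. For the difference between the tex1-4 effects DESeq2 called 2 members and edgeR 0, where 7.98% and 4.92% of all genes were called. Over 2-fold, 1 member was called in pho1-7tex1-4 against Col-0 and 0 in each of the 6 other comparisons of groups. Between 1.87% and 6.93% of all genes were called there. With 1 sample left out, the number called ranged from 0 to 7 in pho1-7 against Col-0, 10 to 18 in pho1-7tex1-4 and 6 to 13 in pho1-7hpr1-5 against pho1-7, 17 to 19 and 12 to 16 against Col-0, 1 to 5 between the double mutants and 9 to 18 on plates, and the extension call in pho1-7hpr1-5 against pho1-7 was 0 or 1. The share of all genes called moved with the sample left out as well. The cause of these moves was not tested, and leaving out a sample also leaves fewer samples to the test. The deviations of same-numbered samples had correlations of mixed sign, from -0.33 to 0.31 over genes in pots and of 0.16, -0.27 and -0.05 on plates. In pots they were 0.30 for Col-0 with pho1-7tex1-4, 0.31 for pho1-7hpr1-5 with pho1-7 and -0.33 for Col-0 with pho1-7. The samples were therefore not paired by number in the main fits, and a source of variation shared between groups was not tested. A replicate block brought the plate count from 17 to 11 and moved no other count by over 1.5-fold. With the block 35.5% of the members were called on plates, and the share of all genes went from 37.2% to 26.4%. No scaling moved the median of all genes by over 0.1 on the log2 scale. Depth limited FLC, CLPS5 and PAPS3 and the extension, which rested on 8 to 60 reads a sample.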
